A study of Mus musculus with 2 samples.

Results

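The cells described here are dendritic cells of the mouse mitral valve that carried transcripts of Xcr1 and Clec9a, a pair of receptors that mark type 1 conventional dendritic cells. They were chosen by their raw counts of unique molecular identifiers (UMIs, which count captured RNA molecules). A cell was selected when Xcr1 and Clec9a together reached 2 UMIs, the complement genes C1qa, C1qb and C1qc together stayed under 10, and the collagen genes Col1a2 and Col3a1 together stayed under 5. Of 4313 cells in all, 60 met this rule. The UMIs of Xcr1 and Clec9a that chose the cells are given only as a description. They also enter the sums of the receptor list (Xcr1) and of the pattern recognition list (Clec9a) below.

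Mitral valves were taken from 12-week-old mice on the C57BL/6J background and profiled by droplet single-cell RNA-Seq. The WT library was made from Fbn1+/+ littermates. The mgR library was made from Fbn1 mgR/mgR mice. This hypomorphic allele lowers the amount of fibrillin-1, the main protein of extracellular microfibrils, and the mice serve as a model of Marfan syndrome. There was 1 library per genotype, made from enzyme-digested valve tissue whose viable cells were sorted, so differences between genotypes could not be checked across replicates and no P value is given. The WT library gave 8 of the selected cells among 875 cells, and the mgR library gave 52 among 3438. The labels do not say how many mice were pooled in each library. Each library held cells of more than 1 animal, since Xist, which is transcribed from the inactive X chromosome of females, and genes of the Y chromosome marked separate cells, although the study's methods describe comparisons between male mice. Of all cells, 246 in WT and 2091 in mgR carried Xist alone, and 337 and 724 Y-linked transcripts alone, so the mix of sexes differed between the libraries and lies within every ratio of mgR to WT. Among the selected cells, 4 in WT and 30 in mgR carried Xist alone, and 4 in WT and 14 in mgR carried Y-linked transcripts alone.

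Type 1 conventional dendritic cells arise under the transcription factors IRF8, BATF3 and ID2 and depend on the growth factor receptor FLT3. They take up dead cells, which CLEC9A recognizes by exposed actin filaments, and present their antigens on MHC class I molecules to CD8 T cells, a route called cross-presentation. XCR1 binds the chemokine XCL1, which activated T cells and natural killer (NK) cells release.

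Both genes of the rule are protein coding. In GRCm38, Xcr1 (ENSMUSG00000060509) occupies bases 123852315 to 123862029 of chromosome 9, minus strand. Clec9a (ENSMUSG00000046080) occupies bases 129408862 to 129424763 of chromosome 6, plus strand, and overlaps the annotated genes Clec1b and Gm43914 on the same strand, so reads in the shared stretch may be assigned to either gene. The stretches just upstream of both genes and of Ifi205, an interferon-inducible gene that was also carried by the selected cells, are shown because the transcription factors of this lineage act at known DNA motifs. The 250 bases before each start are from RefSeq on GRCm38.p6, on the gene's strand: Xcr1 at chr9:123862030-123862279 (minus), Clec9a at chr6:129408612-129408861 (plus) and Ifi205 at chr1:174031756-174032005 (minus). Capitals mark an interferon-stimulated response element (ISRE, searched on both strands as GAAA and GAAA with 2 bases between them).
Xcr1: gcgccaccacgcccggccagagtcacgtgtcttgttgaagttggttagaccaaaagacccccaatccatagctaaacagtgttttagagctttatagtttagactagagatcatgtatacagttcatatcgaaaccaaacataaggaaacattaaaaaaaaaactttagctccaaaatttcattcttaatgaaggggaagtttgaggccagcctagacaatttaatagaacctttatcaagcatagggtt
Clec9a: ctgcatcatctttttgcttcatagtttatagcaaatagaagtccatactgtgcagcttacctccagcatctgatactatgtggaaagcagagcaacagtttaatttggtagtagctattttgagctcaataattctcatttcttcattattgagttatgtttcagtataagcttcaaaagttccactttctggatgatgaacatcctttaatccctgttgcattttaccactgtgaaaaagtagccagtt
Ifi205: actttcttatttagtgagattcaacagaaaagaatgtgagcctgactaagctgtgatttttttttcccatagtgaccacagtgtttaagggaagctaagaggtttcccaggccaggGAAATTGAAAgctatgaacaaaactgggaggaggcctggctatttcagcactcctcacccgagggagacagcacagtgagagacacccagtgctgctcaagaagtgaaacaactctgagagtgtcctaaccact
Besides the ISRE, the search covered the AP-1 site (TGANTCA), which BATF3 partners with JUN proteins to bind, and the ETS-IRF composite element (GGAA and GAAA with 2 bases between them), which IRF8 binds with PU.1. The ETS-IRF and ISRE letters can overlap. Of 20 genes in a list of the type 1 dendritic cell programme, 15 had a promoter sequence of 300 bases (250 before to 50 after the start), 17 promoters in all. The ISRE was present for 2 of the 15 genes, Ifi205 and Tlr11, whereas the AP-1 site and the ETS-IRF element were present for 0. Over 32851 promoters, 3.44% held the ISRE, 7.81% the AP-1 site and 2.72% the ETS-IRF element. A match in such a window describes its letters only.

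The library totals were 5381844 UMIs in WT and 28215539 UMIs in mgR. The selected cells held 86565 and 664156 UMIs, with medians of 10567 and 12286 per cell and ranges of 7796 to 14288 and of 6259 to 20949. All other cells had medians of 4991 and 7277 UMIs, so the selected cells were deeper than the rest in both libraries. The libraries shared 2 cell barcodes, and none of the selected cells carried them. Fbn1, the targeted gene, had 0 UMIs in the selected cells of both libraries and so does not check the genotype in them.

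In WT, the 8 selected cells held 1, 2, 2, 2, 3, 3, 3 and 9 UMIs of Xcr1, and 0, 0, 0, 1, 2, 3, 3 and 3 UMIs of Clec9a. In mgR, Xcr1 ranged from 0 to 9 with a median of 2, and Clec9a from 0 to 5 with a median of 2. Both genes were seen together in 5 of 8 and in 39 of 52 cells, Xcr1 alone in 3 and 5, and Clec9a alone in 0 and 8. The median sum was 3.5 UMIs in both libraries, so many cells sat close to the threshold. Just inside it, at a sum of exactly 2, lay 1 WT cell and 14 mgR cells, and just outside it, at a sum of 1, lay 3 WT cells and 17 mgR cells that met the other limits. Of 54 mgR cells with a sum of 2 or more, the complement limit removed 2 and the collagen limit removed 0, and in WT both limits removed 0.

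The cells on either side of the threshold were compared by genes the rule did not use. Of Irf8, Itgae, Wdfy4, Naaa, Cadm1 and Flt3, at least 3 were detected in 13 of the 14 mgR cells just inside and in 8 of the 17 just outside. In mgR cells with a sum of 3 or more, this held for 36 of 38. The WT cells just outside held 25 UMIs of Cd209a, a lectin of type 2 dendritic cells, and 0 of Irf8, and none of these 3 cells met the criterion, whereas the 1 just inside and the 7 further inside did. The mgR cells just outside held 102 UMIs of Irf8 and 25 of Cd209a, so they were a mixture of cells with and without the type 1 genes.

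**Figure D1:**
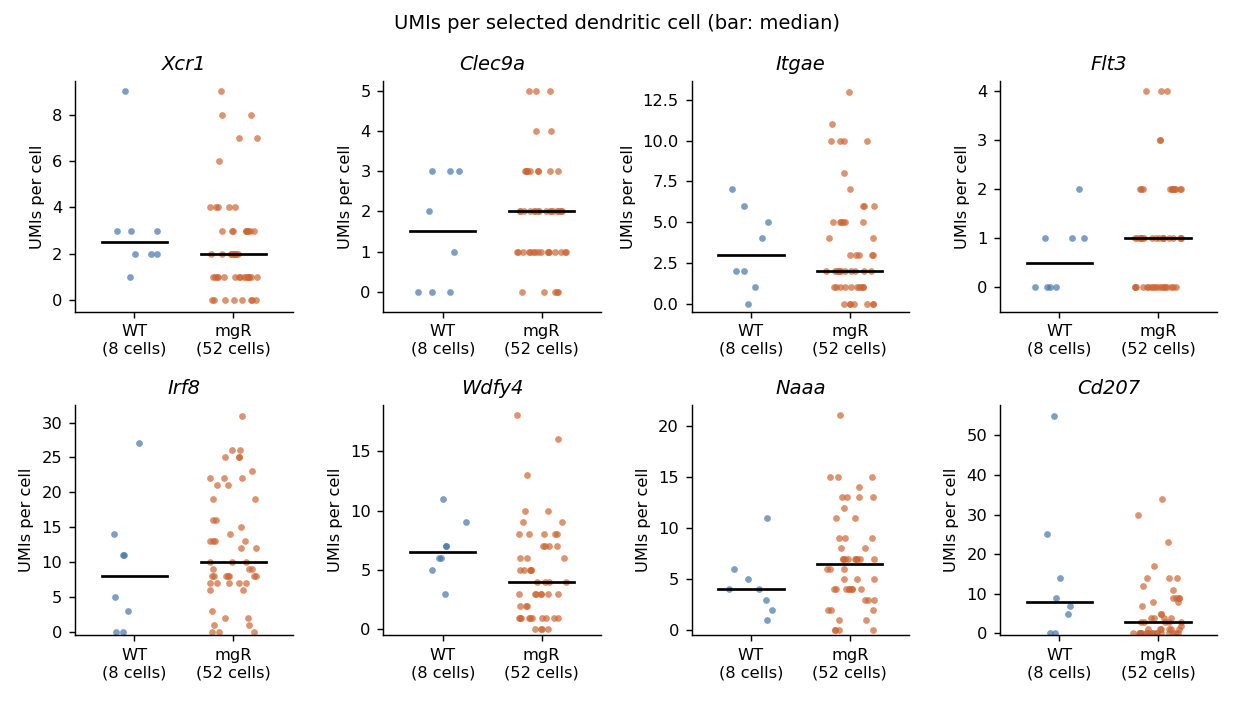
UMIs per selected cell (vertical axis) in the WT library (blue, 8 cells) and the mgR library (orange, 52 cells). Each point is a cell and each bar the median; Xcr1 and Clec9a chose the cells, and the other genes were not part of the rule. Irf8 medians were 8 and 10 UMIs, and Cd207 medians 8 and 3.

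The further markers of the label were present. Itgae, the integrin chain alpha-E known as CD103, was detected in 7 of the WT cells and in 45 from mgR, with medians of 3 and 2 UMIs and maxima of 7 and 13. Flt3 was sparse, with 5 UMIs in 4 WT cells and 58 UMIs in 34 mgR cells. Irf8, the factor that specifies the lineage, reached 71 UMIs in 6 WT cells and 633 in 49 mgR cells. The WT cells held 0, 0, 3, 5, 11, 11, 14 and 27 UMIs of Irf8, and the mgR cells held 0 to 31 with a median of 10. Batf3 was thin, at 3 and 61 UMIs, and Tlr3, a sensor of double-stranded RNA, was thinner still, at 1 and 16 UMIs. Sirpa, a marker of the type 2 lineage, had 0 and 4 UMIs, and Itgam, which encodes CD11b, had 0 in both libraries. Zeb2, a factor that opposes the type 1 fate, had 0 UMIs in WT and 10 in mgR. The label thus fitted the marker genes in both libraries, although 2 WT and 3 mgR cells had no Irf8 UMI.

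The selected cells were 0.914% of WT cells (95% interval 0.396 to 1.79) and 1.51% of mgR cells (1.13 to 1.98). Shares carry exact Clopper-Pearson intervals, levels and ratios carry exact Poisson and conditional binomial intervals, and all of these cover counting error only. The difference of 0.598 percentage points had an interval of -0.360 to 1.3. It was not detectable at this depth. When each cell was thinned to 2000 UMIs, leaving out 116 WT and 158 mgR cells that were shallower, the shares were 0.264% (2 of 759) and 0.305% (10 of 3280). Among cells with a UMI of Ptprc, the pan-leukocyte gene for CD45, the shares were 2.13% and 2.65%. Among cells with Xist alone the order turned, at 1.63% in WT and 1.43% in mgR, whereas among cells with Y-linked transcripts alone the shares were 1.19% and 1.93%.

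A pair of other dendritic cell sets and a macrophage set served for comparison. Cd209a cells (2 UMIs or more of Cd209a; 14 WT and 29 mgR cells) stood for the type 2 lineage. Ccr7 cells (3 UMIs or more of Ccr7 and Fscn1 with both present; 3 WT and 17 mgR cells) stood for mature, migrating dendritic cells. C1q macrophages (10 UMIs or more of the complement genes) numbered 228 in WT and 1563 in mgR. Of the 3 dendritic cell sets together, the selected cells made up 32% in WT (8 of 25) and 53.1% in mgR (52 of 98). That difference of 21.1 points had an interval of -2.80 to 40.9, again within counting error. Shares after digestion and sorting are those of captured cells, not of the valve.

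Levels were compared between sets as CPM, the UMIs of a gene over the summed cells scaled to a common library total, within each library. With 1 library per genotype, a gene was called different when its CPM ratio passed 2 in the same direction in both libraries. These calls have no test, since the sets were themselves chosen by their UMIs. Against Cd209a cells, 51 of 1366 genes (3.73%) were called higher in the selected cells and 101 (7.39%) lower. Of the type 1 programme list, 9 of its 20 genes had enough UMIs, and all 9 were called higher: Cadm1, Cd24a, Id2, Irf8, Itgae, Naaa, Ppt1, Rab7b and Wdfy4. The list's other 11 genes were too sparse for this comparison. In WT, all of the 9 but Id2 met the minimum of 20 UMIs only through the selected cells. The filter thus favoured this direction, and the count of 9 is a description.

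Irf8 reached 820 CPM in the selected WT cells and 44.2 CPM in WT Cd209a cells, and 953 against 9.99 CPM in mgR. The ratios were 18.6 (7.59 to 58.9) and 95.4 (32.5 to 464), so the gap was wide in both libraries. Id2, an inhibitor of E proteins, was 3.89 times (2.66 to 5.80) and 3.84 times (3.0 to 4.98) as high. Wdfy4, which cross-presentation requires, had ratios of 10.1 (4.58 to 26.3) in WT and 3.63 (2.49 to 5.46) in mgR. Naaa, a lysosomal amidase, was closer to its level in Cd209a cells, with ratios of 2.61 and 2.13. Itgae had 27 UMIs in the selected WT cells and 0 in WT Cd209a cells, at least 11.8-fold higher against a floor of 3 UMIs, and in mgR its ratio was 41.1 (11.2 to 342). Ifi205, whose upstream sequence is printed above, had 12 and 154 UMIs in the selected cells and 0 in the Cd209a cells of both libraries, which made it at least 5.23-fold and 23.2-fold higher. Flt3 had a ratio of 1.31 (0.301 to 5.68) in WT and of 2.91 (1.43 to 6.69) in mgR.

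By a fixed rule of size, the 10 genes with the highest ratios to Cd209a cells were Rab7b, Irf8, Cadm1, Ppt1, Itgae, Ubash3b, Lrrk2, Pi4k2a, Adam19 and Txndc16. Rab7b, a small GTPase of endosomal transport, was 37.3 times (9.85 to 315) as high in WT and 48.2 times (16.4 to 235) as high in mgR. Ppt1, a lysosomal thioesterase, had ratios of 45.8 (12.2 to 385) and 14.2 (8.36 to 26.1). Cadm1, an adhesion molecule that binds CRTAM on T cells, had a ratio of 22.9 (5.88 to 196) in WT and was at least 19.6-fold higher in mgR, where the Cd209a cells had 0 UMIs. Lrrk2, a kinase that acts on Rab GTPases, had ratios of 12.1 and 6.71. Outside the programme list and the rule of size, Klrk1, which encodes the receptor NKG2D, had ratios of 5.23 (2.08 to 15.6) and 14.1 (5.38 to 52.7).

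The genes lowest against Cd209a cells were Mgl2, Cd209a, Cxcl2, Tmem176a and Wfdc17. Mgl2, a lectin of type 2 dendritic cells, had 1 UMI in WT and 7 in mgR in the selected cells against 163 and 552 in Cd209a cells. Cd209a had 0 UMIs in all 60 selected cells, while the Cd209a cells, which were chosen by it, were at least 26.0-fold and 181-fold higher. In MHC class I presentation and cross-presentation, 4 of 16 genes were called higher (Mpeg1, Psmb9, Rab43 and Wdfy4) and 3 lower (Cybb, Ifi30 and Rac2). Psmb9, an immunoproteasome subunit, had ratios of 4.58 (2.37 to 9.55) and 3.03 (2.18 to 4.29). Cybb, the catalytic chain of the phagocyte oxidase, had 0 UMIs in the selected WT cells and 12 in mgR, which made it at least 9.18-fold lower than in Cd209a cells in WT, against the floor of 3 UMIs, and put its ratio at 0.0631 (0.0314 to 0.116) in mgR.

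MHC class II genes were abundant and close to the level of Cd209a cells. Cd74, the invariant chain, reached 20978 CPM in WT and 22961 CPM in mgR, and H2-Aa 9831 and 9061 CPM. Of 10 genes of class II presentation, Cst3 was called higher and the proteases Ctsh and Ctss lower. Cst3, an inhibitor of cathepsins, was at 28661 and 29473 CPM, with ratios of 3.53 (3.27 to 3.81) and 2.82 (2.72 to 2.93). Ctss, the protease that trims the invariant chain, had ratios of 0.304 (0.201 to 0.446) and 0.401 (0.347 to 0.463). The inhibitor was thus higher, and the cathepsins lower, in the selected cells of both libraries.

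**Figure D2:**
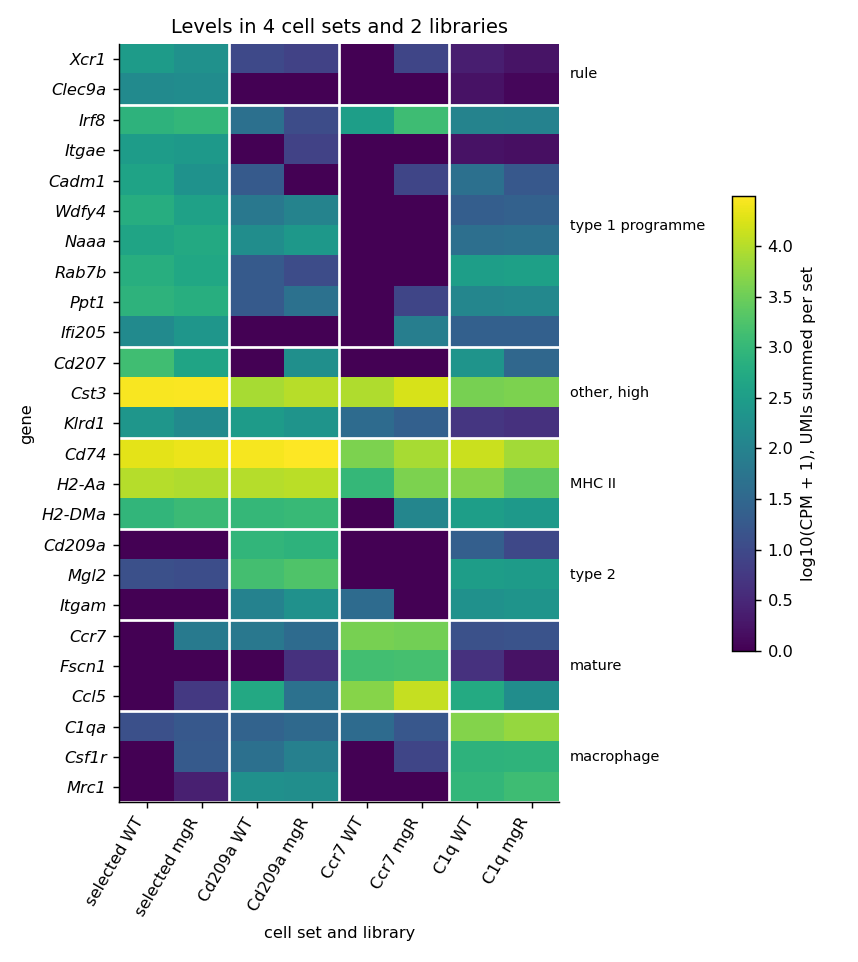
Level of 25 genes (rows) as log10(CPM + 1) of summed UMIs, in the selected cells, Cd209a cells, Ccr7 cells and C1q macrophages of each library (columns). Colours are to be read along a row. Itgae, Cadm1, Rab7b and Ppt1 were brighter in the selected cells than in Cd209a cells in both libraries, and Cd209a and Fscn1 had 0 UMIs in the selected cells.

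Against Ccr7 cells, 115 of 770 genes (14.9%) were called higher in the selected cells and 59 (7.66%) lower. The Ccr7 set held 3 cells in WT, so its values rest on few molecules. Of the programme list, 6 of 9 genes were called higher (Cadm1, Itgae, Naaa, Ppt1, Rab7b and Wdfy4). These 6 had 0 UMIs in WT Ccr7 cells and met the minimum count in WT only through the selected cells, so their count is a description. The remaining factors of the lineage were not confined to the selected cells. Irf8 had a ratio to Ccr7 cells of 2.48 (1.24 to 5.66) in WT but of 0.747 (0.629 to 0.892) in mgR, and Batf3 and Id2 in mgR had ratios of 0.374 (0.24 to 0.592) and 0.542 (0.464 to 0.636). Ly75, the uptake receptor DEC-205, was also lower in mgR, at 0.181 (0.111 to 0.294). The mgR Ccr7 cells thus carried Irf8, Batf3, Id2 and Ly75 while holding 0 UMIs of Itgae, Wdfy4, Naaa and Rab7b.

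The 10 genes highest against Ccr7 cells were Lyz2, Plbd1, Cd207, H2-DMa, Fos, Ppt1, Ckb, Gm2a, Alox5ap and Rab7b. Lyz2, the lysozyme gene of myeloid cells, had 197 and 1224 UMIs in the selected cells against 0 and 6. Cd207, the gene of the C-type lectin langerin, had 115 and 277 against 0 in both, at least 12.1-fold and 18.1-fold higher. Alox5ap, which activates 5-lipoxygenase in leukotriene synthesis, had 57 and 499 UMIs against 1 and 0. Gm2a, a lysosomal cofactor of ganglioside breakdown, had 60 and 535 against 0 in both, at least 6.30-fold higher in WT. The lowest were Ccl5, Fabp5, Ccr7, Fscn1 and Tspan3. Fscn1, an actin-bundling protein of mature dendritic cells, had 0 UMIs in all 60 selected cells against 38 and 196. Of 9 maturation genes with enough UMIs, 8 were called lower in the selected cells and 0 higher. For Ccr7 and Fscn1, which are among the 8, the choice of the Ccr7 cells fixed this direction. Ccl5 and Ccl22, also among the 8, had 0 UMIs in the selected WT cells against 133 and 123 in WT Ccr7 cells. They met the minimum count in WT only through the Ccr7 cells. The filter thus favoured this direction, and the count of 8 is a description. Of 8 class II genes, 6 were called higher, and H2-Aa had ratios of 9.93 (6.77 to 15.2) and 2.25 (2.05 to 2.46).

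Against C1q macrophages, 326 of 6290 genes (5.18%) were called higher in the selected cells and 1296 (20.6%) lower. All 14 macrophage markers were called lower, which the complement limit of the rule fixes for C1qa, C1qb and C1qc. Csf1r, the growth factor receptor of macrophages, had 0 and 12 UMIs in the selected cells and 799 and 837 CPM in macrophages. Zeb2 had 0 and 10 UMIs against 1378 and 13474. The chemokine Cxcl2 had 0 and 30 UMIs against 34726 and 197031, and 9 of 16 cytokine genes were called lower and 0 higher. Among genes of pattern recognition and dead-cell uptake, 11 of 19 were called lower, and Havcr2, which encodes the phosphatidylserine receptor TIM-3, was called higher. It had 47 and 213 UMIs, and ratios to macrophages of 5.82 (4.09 to 8.15) and 5.90 (5.04 to 6.88).

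Of the programme list, 8 of 12 genes were called higher than in macrophages (Cadm1, Cd24a, Ifi205, Irf8, Itgae, Naaa, Ppt1 and Wdfy4). Rab7b, which set the selected cells apart from Cd209a cells, came to ratios of 2.01 (1.5 to 2.65) and 1.33 (1.18 to 1.49), since macrophages carried it too. In class I presentation, 8 of 23 genes were called higher (Psmb8, Psmb9, Psme1, Psme2, Rab43, Tap1, Tap2 and Wdfy4) and Cybb lower. Psmb8 and Psmb9 are immunoproteasome subunits, Psme1 and Psme2 the proteasome activator, and Tap1 and Tap2 the peptide transporter. Tap1 had ratios of 6.41 (3.0 to 12.8) and 3.45 (2.75 to 4.28). Of 21 interferon-stimulated genes, 16 were called lower than in macrophages and 1, Stat2, higher.

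The 10 genes highest against macrophages were Itgae, Gpr171, Serpinb6b, P2ry10, Cd24a, Klrk1, Gfod1, Gcnt2, Klrd1 and Lrrk2. Itgae had ratios of 461 (76.0 to 18883) and 537 (256 to 1356). Its partner chain Itgb7, which forms with it the receptor for E-cadherin, had 16 and 126 UMIs, with ratios of 39.0 (15.2 to 112) and 34.3 (25.6 to 46.2). Klrk1 and Klrd1, receptor genes best known from NK cells, had 24 and 20 UMIs in 7 WT cells each, and 125 and 94 UMIs in 38 and 32 mgR cells. Among 15 T and NK cell markers, Klrd1 was the only one with a UMI in WT cells, and in mgR the only other was Trac, with 1 UMI. Cd3d, Cd3e, Cd3g, Nkg7, Ncr1 and Gzmb were at 0 in all 60 cells. Klrd1 was also carried by Cd209a cells, with 33 and 63 UMIs. The ratios of the selected cells to them were 0.792 (0.431 to 1.42) in WT and 0.675 (0.485 to 0.944) in mgR, so in mgR its level was lower in the selected cells.

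Lists of markers of other cells ranged from 0 to 25 UMIs in the median cell. The monocyte list had 210 UMIs in WT and 1378 in mgR, 2426 and 2075 CPM against 4093 and 7938 CPM in all other cells, and 7 of 8 and 51 of 52 selected cells held 3 or more. Lyz2 gave 197 and 1224 of these UMIs, while Chil3, Fcnb, Vcan and F10 were at 0 in both libraries. Type 2 dendritic cell markers had 50 and 693 UMIs, 578 and 1043 CPM against 1400 and 1645 CPM, with 3 or more UMIs in 4 WT and 44 mgR cells. Klf4, a factor that other myeloid cells also use, gave 46 and 466 of them. Plasmacytoid markers had 24 and 207 UMIs, mostly of Bst2 and Tcf4, with 3 or more in 4 WT and 33 mgR cells, and the part of these lists in the results was not tested. The macrophage list had 63 UMIs in WT and 818 in mgR selected cells, 728 and 1232 CPM against 20207 and 25630 CPM in all other cells. Neutrophil markers had 1 and 3 UMIs and endothelial markers 1 and 22. The 8 fibroblast markers had 0 UMIs in WT and 129 in mgR, of which 107 lay in a single mgR cell. This cell had 20949 UMIs and 4279 genes and also held 572 of 588 UMIs of Mgp, 225 of 284 of Apoe and 121 of 233 of Gsn, beside 4 UMIs of Xcr1, 1 of Clec9a, 12 of Irf8 and 5 of Itgae. It therefore carried type 1 and fibroblast transcripts in the same droplet. Scrublet, a doublet caller, marked 0 selected WT cells and 1 selected mgR cell.

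The ligands of these cells were looked up in the same libraries. Xcl1, the ligand of XCR1, had 15 UMIs in 4 WT cells and 38 in 12 mgR cells, all among cells with 3 or more UMIs of T and NK markers (104 and 205 cells). It had 0 UMIs in the selected cells and in macrophages. Flt3l, the ligand of FLT3, was spread over many cells, with 47 UMIs in 46 WT cells and 177 in 170 mgR cells.

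The mgR library was next compared with the WT library within the selected cells, to ask how the type 1 dendritic cells of the fibrillin-1-deficient valve differed. Sums over 8 WT cells limit what can be seen, and a single cell can carry a gene's WT value. Of 3915 genes with 20 UMIs or more, 690 (17.6%) had a CPM ratio of mgR to WT of 2 or more, and 283 (7.23%) a ratio of 0.5 or less. Among the 484 genes with 200 UMIs or more, these numbers were 19 (3.93%) and 9 (1.86%). The share past 2-fold was thus several times smaller where the counts were deeper. The minimum was summed over both libraries, and the selected cells held 664156 UMIs in mgR against 86565 in WT. Genes therefore entered mainly through mgR, and 147 of the 3915 had no UMI in WT. This favoured upward calls, here and in the list counts below. With low sums raised to the floor used above, the median log2 ratio over all genes turned from 0.06 to -0.055.

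The programme list was near parity. Of 17 genes with enough UMIs, Batf3 was past 2-fold upward and Cadm1 and Ly75 downward, the median log2 ratio was -0.19 beside 0.06 over all genes, and the summed ratio was 0.861 (0.787 to 0.943). Irf8 had a ratio of 1.16 (0.908 to 1.51), Naaa of 1.28 (0.908 to 1.86) and Itgae of 0.879 (0.584 to 1.37), and their intervals include 1. Cadm1 was lower in mgR at 0.484 (0.331 to 0.725), with a median of 3.5 UMIs in WT cells and 2 in mgR cells and nearly equal maxima of 9 and 10. Wdfy4 was lower at 0.601 (0.446 to 0.822), where every WT cell held 3 to 11 UMIs and the mgR cells 0 to 18. Id2 was lower at 0.714 (0.582 to 0.884). Batf3 was at 2.65, but its interval of 0.865 to 13.2 rests on 3 WT UMIs. The ranges overlapped for all of these genes.

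Presentation genes differed little between the libraries. The class II list had 1 of 13 genes past 2-fold upward, Ciita, and 1 downward, H2-DMb2, and a summed ratio of 1.01 (0.990 to 1.04), whereas in macrophages the same list was at 0.626. Of 21 class I genes, Psmb10, Tapbpl and Erap1 were past 2-fold upward and Sec22b downward, all with intervals that include 1, and the summed ratio was 1.09 (1.01 to 1.17). B2m, the light chain of class I molecules, was higher in mgR at 1.83 (1.43 to 2.39), with 67 UMIs in WT and 943 in mgR. H2-K1, a class I heavy chain, was at 1.33 (1.06 to 1.69), and H2-D1 at 1.10 (0.925 to 1.32). Mpeg1, which encodes the pore-forming protein perforin-2, was lower at 0.561 (0.414 to 0.775).

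Receptor and adhesion genes were lower in sum. Receptors of chemokines and growth factors had a summed ratio of 0.686 (0.595 to 0.794), with 3 of 11 past 2-fold upward (Ccr2, Ccr7 and Cxcr4) and 2 downward, among them Ifnar1. Xcr1, a gene of the rule, is among these 11. It gave 25 of 227 UMIs in WT and 125 of 1195 in mgR, so the sum includes UMIs that chose the cells. Ifnar1, a chain of the type I interferon receptor, was at 0.364 (0.225 to 0.607) and Ifngr1, of the interferon-gamma receptor, at 0.538 (0.389 to 0.757). Csf2rb, the shared chain of the GM-CSF receptor, was at 0.639 (0.497 to 0.833). Integrin and adhesion genes had a summed ratio of 0.786 (0.679 to 0.913), with Itgax and Itga5 of 12 upward and Cadm1 downward. Itgax, which encodes CD11c, had 1 UMI in WT and 58 in mgR, a ratio of 7.56 with an interval from 1.3 to 304. Itgb2, the beta chain of leukocyte integrins, was at 0.507 (0.329 to 0.805), and Itgb1, the beta chain of most matrix-binding integrins, at 0.753 (0.498 to 1.18).

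The mTOR and TGF-beta pathways, which the study examined in the valve, had summed ratios whose counting intervals include 1. These sums count RNA of pathway genes. The study also stained phosphorylated proteins such as p-S6 and p-Smad2, and such pathway activity was not measured here. The mTOR list had 2 of 13 genes past 2-fold upward (Akt1 and Hmgcs1, on 3 and 2 WT UMIs) and 0 downward, a median of 0.22 and a summed ratio of 1.09 (0.968 to 1.23). Within it, Rps6, a ribosomal protein that S6 kinase phosphorylates, was at 1.38 (1.15 to 1.67), and Slc3a2, the heavy chain of amino acid transporters, at 0.622 (0.459 to 0.855). The TGF-beta list had 2 of 9 upward (Smad7 and Ski) and 0 downward, with a summed ratio of 1.12 (0.90 to 1.40). Smad7, an inhibitor that TGF-beta induces, had 0 UMIs in WT and 45 in mgR, at least 1.96-fold higher. Tgfb1 itself was at 1.0 (0.560 to 1.95).

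The lists of transcription factors, pattern recognition, costimulation, maturation and ribosomal proteins had summed ratios between 0.829 and 1.10. Transcription factors of dendritic cells had 3 of 13 genes past 2-fold upward (Batf3, Bcl6 and Relb, with 0 to 3 UMIs in WT) and 1 downward, Tcf4, at 0.332 (0.160 to 0.739), with a summed ratio of 1.05 (0.934 to 1.18). Tcf4 encodes E2-2, the factor of plasmacytoid dendritic cells. Pattern recognition and costimulation lists had 0 of 6 and 0 of 5 genes past 2-fold in either direction. The pattern recognition list had a median log2 ratio of -0.33 and a summed ratio of 0.829 (0.681 to 1.02). Clec9a, a gene of the rule, is among its 6 genes, so these values include UMIs that chose the cells. Havcr2 was at 0.591 (0.429 to 0.828), and Cd86, a costimulatory ligand of CD28, at 1.29. Maturation genes had 4 of 10 upward (Ccr7, Ccl22, Marcksl1 and Relb, each with 0 to 2 UMIs in WT) and 2 downward (Samsn1 and Tmem123), with a summed ratio of 1.01 (0.857 to 1.21), and ribosomal protein genes had 1 of 16 upward, Rpl5, with a summed ratio of 1.10 (1.06 to 1.13).

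**Figure D3:**
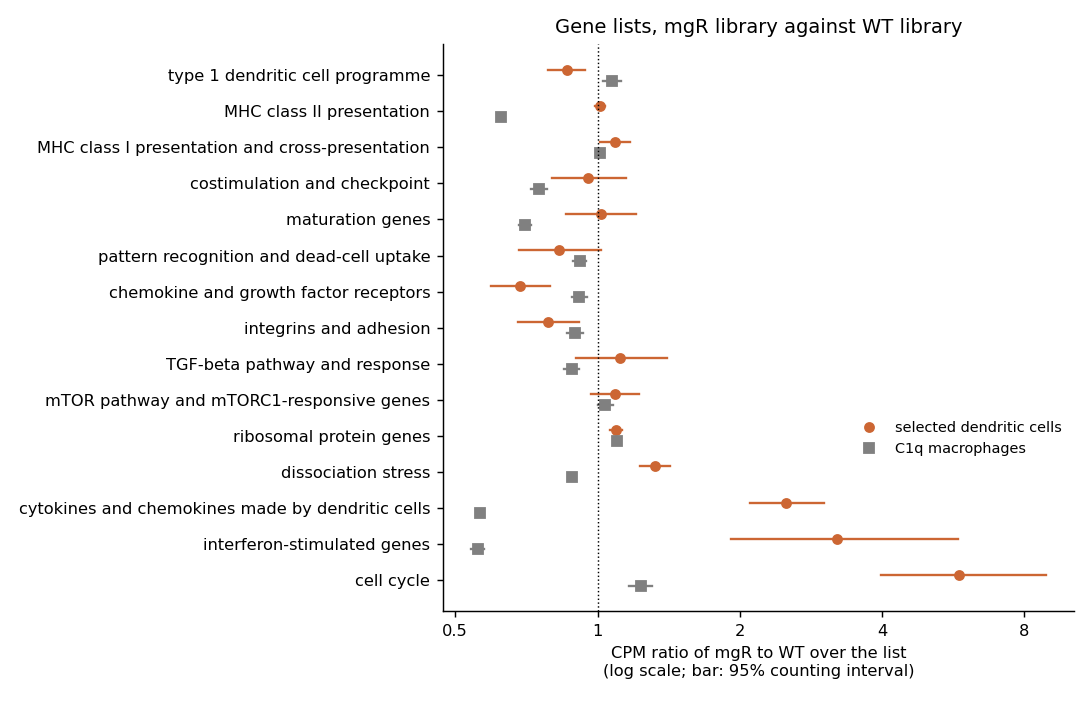
CPM ratio of mgR to WT for the summed UMIs of 15 gene lists (log axis), in the selected cells (orange circles) and in C1q macrophages (grey squares), with 95% counting intervals as bars. The selected cells lay at 5.83 for the cell cycle, 3.21 for interferon-stimulated genes and 2.51 for cytokines, while the macrophages lay at 1.23, 0.558 and 0.564. The receptor list includes Xcr1 and the pattern recognition list Clec9a, the genes that chose the cells.

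The widest list ratios lay in lists with few WT molecules. Cell cycle genes had 27 UMIs in WT and 1207 in mgR, a ratio of 5.83 (3.98 to 8.88), and 14 of 15 were past 2-fold upward. Of these 15 genes, 13 had fewer than 3 UMIs in WT, and with those set at 3 UMIs the median log2 ratio was 0.23 in place of 4.63. Interferon-stimulated genes had 15 and 369 UMIs, a ratio of 3.21 (1.92 to 5.79), with 5 of 6 upward (among them Cxcl9, Gbp2, Irf7 and Isg15) and a median of 3.83 that became 0.54 at the same floor. Isg15, a ubiquitin-like modifier, had 1 UMI in WT and 56 in mgR. Gbp2, a GTPase induced by interferon-gamma, had 0 and 43, in 5 mgR cells of which 1 held 20. Cytokines had 131 and 2522 UMIs, a ratio of 2.51 (2.10 to 3.01), with 7 of 11 upward and a median of 2.11 that became 0.65. In C1q macrophages, with 228 WT cells, the interferon and cytokine lists were lower in mgR, at 0.558 (0.541 to 0.575) and 0.564. Dissociation stress genes, which enzymatic digestion induces, had a summed ratio of 1.32 (1.23 to 1.42) in the selected cells and of 0.883 in macrophages. Whether that difference in stress genes bears on the other lists was not tested.

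Cycling was seen in mgR cells. With 3 UMIs or more over 10 genes of the cycle, such as Mki67 and Top2a, 8 of 52 mgR cells counted as cycling (15.4%, 6.88 to 28.1). None of the 8 WT cells did, with an interval reaching up to 36.9%, so a difference was not detectable. The 8 cycling cells held 86, 70, 51, 40, 28, 21, 6 and 5 of these UMIs, 36 mgR cells held none, and the WT cells held 1 UMI in all. The cycling cells carried 95 of 99 Mki67 UMIs and 88 of 93 Top2a UMIs. Their Irf8 level was 956 CPM against 953 CPM in the other 44 mgR cells, and their Itgae level 273 against 274 CPM. Wdfy4 was at 474 against 352 CPM and Naaa at 402 against 563 CPM. Cycling cells had a median of 15638 UMIs and the others 11880. After thinning to 2000 UMIs, 6 of 52 (11.5%) still counted. The share was 5 of 29 in mgR Cd209a cells and 116 of 1563 (7.42%) in mgR macrophages, against 1 of 14 and 10 of 228 (4.39%) in WT.

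Chemokines of activated dendritic cells were carried by a few mgR cells. Ccl17, a ligand of CCR4, had 183 UMIs in 13 mgR cells, of which single cells held 80 and 53, and 0 in WT. Ccl22, the other ligand of CCR4, had 52 UMIs in 13 cells, and Ccr7, which guides migration to lymph nodes, had 46 in 7 cells, both also at 0 in WT. Of the 52 mgR cells, 9 held 2 or 3 of these genes, 11 held 1 and 32 held none. The 9 cells held all 46 Ccr7 UMIs, 43 of the Ccl22 UMIs and 160 of the Ccl17 UMIs. Naaa was lower in these 9 cells, at 241 CPM (161 to 346) against 589 CPM (516 to 669) in the 32 cells with none. Wdfy4 was at 216 (141 to 316) against 415 CPM (354 to 483) and Irf8 at 689 (549 to 854) against 1041 CPM (944 to 1146). Itgae was at 299 against 266 CPM in sum, with overlapping intervals, but was uneven among the 9 cells. It was detected in 6 of the 9 against 29 of the 32, and a single cell held 13 of its 36 UMIs. The cells with the most Ccr7, at 16 and 14 UMIs, held 0 of Itgae. Among the 8 cycling cells, 3 held 2 or 3 of the genes, 1 held 1 and 4 held none. Those 3 had the fewest cycling UMIs of the 8, at 21, 6 and 5. The criterion for mature dendritic cells, which needs Fscn1, was met by 0 of 8 and 0 of 52 cells, with intervals reaching up to 36.9% and 6.85%.

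**Figure D4:**
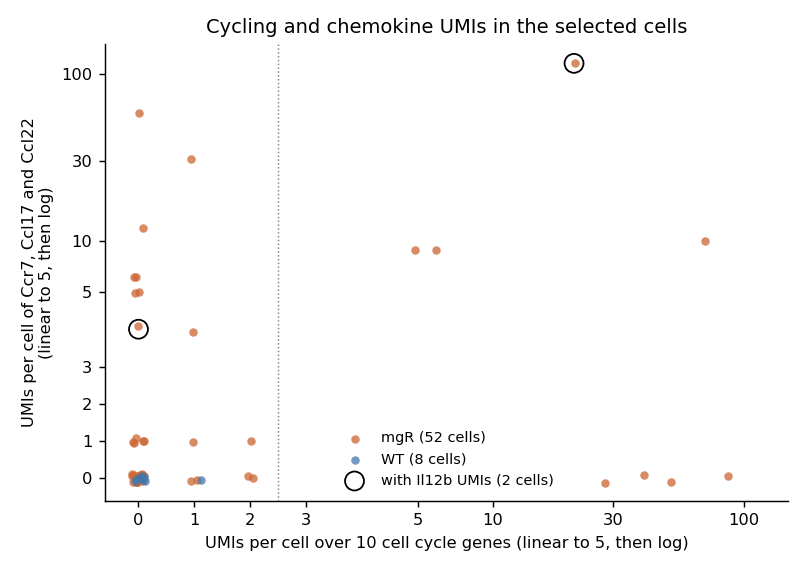
UMIs per selected cell over 10 cell cycle genes (horizontal) and of Ccr7, Ccl17 and Ccl22 together (vertical), both axes linear up to 5 and logarithmic beyond; the dotted line marks the threshold of 3 cycling UMIs and circles mark cells with Il12b. The 8 WT cells sit at the origin or at 1 cycling UMI, and 8 mgR cells sit beyond the line.

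Il12b, the p40 subunit of the cytokines IL-12 and IL-23, had 75 UMIs, all of them in 2 mgR cells with 43 and 32 UMIs. Both cells also held 2 or 3 of Ccr7, Ccl22 and Ccl17. The cell with 43 Il12b UMIs held the highest counts of Il1b (340), Ccl4 (165) and Ccl17 (80) among the selected cells, together with 14 of Ccr7, 21 of Ccl22, 8 of Xcr1 and 8 of Irf8. All of its 21 cycling UMIs were of Mki67, with 0 of Top2a. A single cell thus set much of the cytokine list.

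Il1b, the interleukin-1 beta gene, was the deepest cytokine. The WT cells held 0, 0, 0, 0, 3, 6, 13 and 40 UMIs, and the mgR cells 0 to 340 with a median of 9 and 38 of 52 positive. The groups overlapped, and the ratio was 3.09 (2.40 to 4.06). Without the top mgR cell it was 2.43. In C1q macrophages Il1b was lower in mgR, at 0.434. Ccl4 had 6 and 202 UMIs and a ratio of 4.39 (1.98 to 12.1), which turned to 0.822 without the same cell.

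Cd207 was lower in mgR. The WT cells held 0, 0, 5, 7, 9, 14, 25 and 55 UMIs of this langerin gene, and the mgR cells 0 to 34 with a median of 3. The ratio of mgR to WT was 0.314 (0.252 to 0.394), and without the WT cell of 55 UMIs it was 0.530. The ranges overlapped, and 18 of 52 mgR cells held none. In C1q macrophages the ratio of the same gene was 0.144 (0.124 to 0.167), and in all cells outside the selected set 0.271. Cd207 was thus lower in the mgR library in both of these settings. The Cd209a cells went the other way, with 0 UMIs of Cd207 in WT and 51 in mgR.

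Among genes with 200 UMIs or more, 19 were past 2-fold upward and 9 downward. The upward genes were Apoe, Ccl4, Dusp1, Emp3, Gsn, Hmgb2, Ifi27l2a, Il1b, Jund, Lgals1, Mgp, Nr4a2, Rpl13a, Rpl5, Rps15, S100a6, Sat1, Tagln2 and Tubb5. When the cell with most UMIs of a gene in its higher library was left out, 7 of these 19 (Ccl4, Emp3, Gsn, Lgals1, Rps15, S100a6 and Tagln2) and 6 of the 9 downward genes (Cd207, Hsp90b1, Jdp2, Manf, Rgs1 and Sec61g) were no longer past 2-fold. Mgp, a matrix protein gene of valve fibroblasts, had a ratio of 76.6 that became 2.15 without the single cell rich in fibroblast transcripts, and Apoe went from 12.3 to 2.65 and Gsn from 3.37 to 1.67 in the same way. Tubb5, a tubulin gene, had 2 UMIs in WT and 209 in 38 mgR cells, a ratio of 13.6 (3.72 to 113) that stayed at 11.5 without its top cell. Dusp1, a phosphatase of MAP kinases induced by stress, was at 3.87 (1.85 to 9.75) and Nr4a2, an orphan nuclear receptor, at 2.69 (1.58 to 4.98). In macrophages these were at 1.2, 0.612 and 1.25. The ribosomal genes Rpl13a (2.17), Rpl5 (2.37) and Rps15 (2.01) had similar ratios in macrophages, of 2.22, 2.13 and 2.11.

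The downward genes were AY036118, Antxr2, Cd207, Hsp90b1, Jdp2, Manf, Pdia6, Rgs1 and Sec61g. AY036118 was at 0.234 (0.197 to 0.278) in the selected cells and at 0.211 in macrophages. Rgs1, which dampens chemokine receptor signaling, was at 0.448, at 0.604 without the WT cell that held 18 of its 48 WT UMIs, and at 0.311 in macrophages. Hsp90b1, a chaperone of the endoplasmic reticulum, was at 0.456 (0.376 to 0.556), Pdia6, a disulfide isomerase there, at 0.367 (0.268 to 0.509), Manf, a secreted factor of the same compartment, at 0.400 (0.294 to 0.553), and Sec61g, of its protein channel, at 0.452 (0.347 to 0.594). These 4 genes were picked after their values were seen. In macrophages they were at 1.04, 0.890, 1.10 and 0.797. The same WT cell held the most UMIs of all 4, with 43 of 136, 19 of 55, 23 of 55 and 19 of 73, and without it the ratios were 0.573, 0.482, 0.591 and 0.525.

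**Figure D5:**
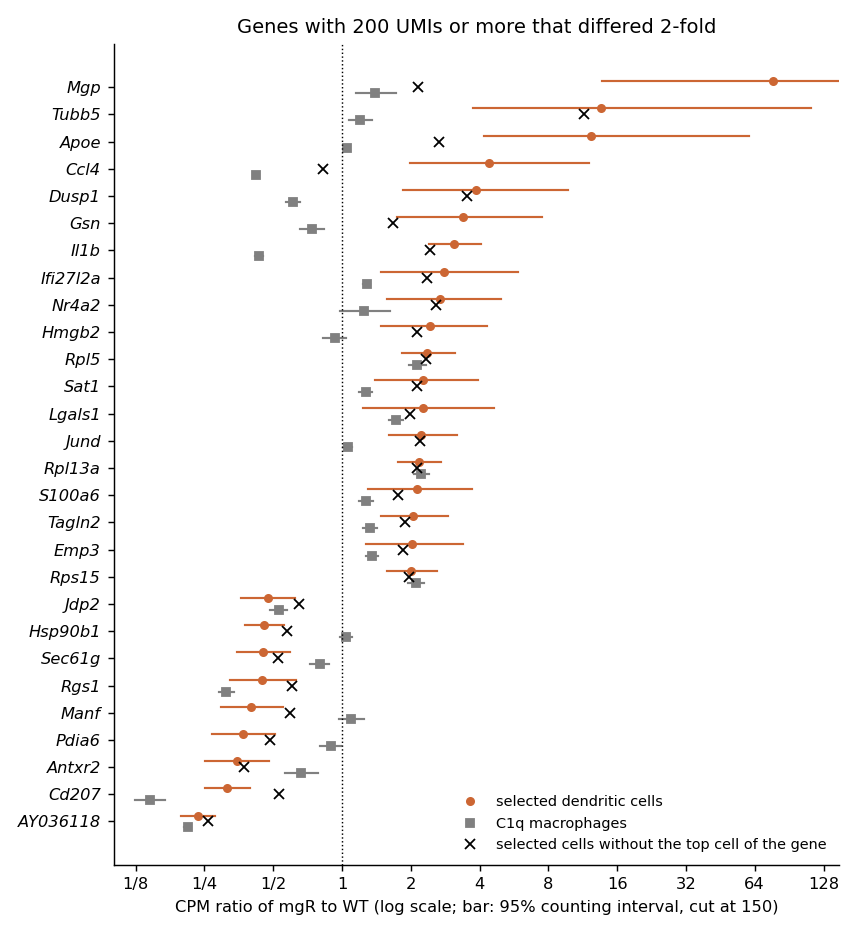
CPM ratio of mgR to WT (log axis) for the 28 genes with 200 UMIs or more that were past 2-fold in the selected cells (orange circles, bars are 95% counting intervals), with the ratio in C1q macrophages (grey squares) and the ratio in the selected cells without the cell that held most UMIs of the gene in the higher library (crosses). Mgp, Apoe, Gsn and Ccl4 moved most, and Ccl4 crossed 1.

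By the fixed rule of size, which required detection in 20% of the cells of the higher library and no cell with over 20% of its UMIs, the 10 genes highest in mgR included Tubb5, Tuba1b, Tuba1a, Arl6ip1, Dusp1, Tppp3, Ass1, Pdcd10 and Zbtb7a. Their WT sums were 2 to 7 UMIs, so the sizes are loose. Tuba1b had 2 UMIs in WT and 176 in mgR, a ratio of 11.5 (3.13 to 95.5), and Tuba1a 2 and 149, a ratio of 9.71 (2.64 to 80.9), so 3 tubulin genes were among the 10. Arl6ip1, a shaping protein of the endoplasmic reticulum, had 4 and 165 UMIs and a ratio of 5.38 (2.06 to 19.97), and was at 1.12 in macrophages. The 10 lowest were Ankrd13c, Zfp652, Kbtbd2, Sec13, Pdcd6ip, Lipa, Fermt3, Psmd2, Serp1 and Pgrmc2. Only Pdcd6ip (0.463, 0.278 to 0.803), Fermt3 (0.478, 0.266 to 0.911) and Serp1 (0.493, 0.331 to 0.752) of these had intervals below 1. Fermt3 encodes kindlin-3, which activates integrins in blood cells, and it had 15 UMIs in 8 WT cells and 55 in 31 mgR cells.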

How the data were processed

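The deposited matrices hold counts: UMIs per gene and cell barcode, which the authors made from 10x Genomics 3-prime v3 libraries with Cell Ranger 7.1.0 on mm10, as per the submitters' processing notes. Neither the annotation release nor whether intronic reads were counted is given in the sources used here. Cells with 200 to 5000 genes and at most 10% mitochondrial UMIs were kept, as in the study. UMIs were summed per library and cell set and scaled to CPM. A gene needed 20 UMIs over both libraries (between sets, 20 in each library), and called means a CPM ratio of 2 or more or of 0.5 or less. List medians used a prior count of 0.5, and a count of 0 was taken to allow 3 counts. Intervals are at 95%. Those of the ratios were checked on simulated independent Poisson counts, which lack the unevenness between cells seen here, so the check does not cover it. Doublets were not removed. Scrublet marked 7 WT and 51 mgR cells (0.800% and 1.48%), and leaving them out was an alternative.

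Named genes were those of the programme list, and, between libraries, the 10 highest and 10 lowest CPM ratios among 1728 genes that met the detection limits, with mitochondrial, ribosomal, haemoglobin, predicted, Xist and Y-linked genes and those of the selection left out. Between sets, they were the 10 highest and 5 lowest by the ratio in the library with the weaker difference. Sums under 3 UMIs were set to 3 for these rankings. Genes outside these rules were taken from the 27 lists, or were named after their values were seen, as were the genes with 200 UMIs past 2-fold. The cells and lists were chosen with earlier results of these data known. The ligands were added after the data were seen, as were the minimum of 200 UMIs and the removal of top cells. Positions used GENCODE on GRCm38, in which 32158 of 32285 features matched by identifier, and promoters were from RefSeq. Python 3.11.15, scipy 1.17.1, pandas 2.3.3 and scanpy 1.11.5 were used. A few genes that met the naming rules or belong to the lists are not reported here.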

Additional observations from a re-analysis of the deposited data

How the results depend on the processing

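With 8 WT cells and 1 library per genotype, counting error is the smallest error these ratios can carry. No paired analysis was possible because each genotype has 1 library and no result comes from a test. The counts of genes past 2-fold between libraries (690 higher and 283 lower in mgR) became 168 and 78 with a minimum of 50 UMIs, 19 and 9 with 200 UMIs, 5095 and 1576 with a minimum of 1 UMI, 116 and 61 after thinning to 2000 UMIs, and 220 and 113 in cells with Y-linked transcripts alone. Without cycling cells 434 were higher. With 50 UMIs, the genes called higher and lower were 15 and 46 against Cd209a cells, 43 and 20 against Ccr7 cells, and 199 and 852 against macrophages. The difference in share was 21.1 points when taken over the 3 dendritic cell sets.

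The other values are median log2 ratios of mgR to WT. With Xcr1 and Clec9a at 1 UMI or more, the programme list was at 0.0059, class I at -0.036, class II at -0.041 and interferon genes at 2.99. With 3 UMIs or more, class II was at 0.18 and mTOR at 0.018, and without the complement limit class II was at 0.19 and interferon genes at 4.77. Thinned, the programme was at 0.087, class I at 0.50, class II at 0.046, stress at 0.27 and mTOR at -0.11. In cells with Xist alone, class I was at 0.27, class II at 0.22, the cell cycle at 3.44, stress at 0.57 and mTOR at 0.40, and in cells with Y-linked transcripts alone class II was at 0.015, the cell cycle at 5.84 and stress at 0.28. With 50 UMIs the programme was at -0.040, class II at 0.085 and the cell cycle at 3.57, and with 200 UMIs class I was at 0.21 and class II at 0.085. With 1 UMI the cell cycle was at 3.75 and interferon genes at 1.92. The cell cycle was at 3.85 by the mean of per-cell CPM and 3.69 with a prior count of 1. Scaling by the median gene put class II at 0.070. Without cycling cells, class II was at 0.20 and stress at 0.31. Without cells holding markers of other cells, most of which were removed for Klrd1, the programme was at -0.43, class II at 0.18 and the cell cycle at 3.78.

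Among named genes, thinning turned Zfp652 (1.73), Kbtbd2 (1.73) and Lipa (2.49) upward, Kbtbd2 was at 0.38 in cells with Y-linked transcripts alone, and Ccl4 was at -0.28 without its top cell. The cause of these shifts was not tested.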
